A study of Mus musculus with 34 samples.

Results

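Elongating RNA polymerase II was compared between libraries made from 1000 and from 100 C2C12 cells, a mouse myoblast line. Each library holds the Pol2S2P reads of a dual staining, in which Pol2S2P and H3K27ac were labelled in the same cells by chromatin integration labelling (mtChIL-seq). The comparison was fixed by the sample titles: 6 of the 28 libraries with a column in the deposited table, 3 of 1000 cells and 3 of 100 cells. The labels describe 34 samples in all. All groups used here are the same line, and the labels name no treatment. The labels do not say whether replicates came from separate cultures, so the p-values reflect the variation among these libraries alone, and that may be technical. Pol2S2P was detected with the mouse monoclonal antibody CMA602 and H3K27ac with CMA309. The H3K27ac libraries of the same stainings (3 of 1000 cells, 3 of 100 cells) and 2 libraries stained for Pol2S2P alone in 1000 cells served as comparisons.

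Pol2S2P is RNA polymerase II whose C-terminal tail is phosphorylated on the serine at position 2 of its repeats. The phosphate is placed mainly by CDK9 and CDK12 once the polymerase leaves the promoter-proximal region, and it is known to rise along gene bodies and to peak near and past the polyadenylation site, where the enzyme slows and terminates. In the labelling, an antibody bound to fixed chromatin carries a probe that a transposase inserts nearby, and the flanking DNA is copied into RNA and sequenced. H3K27ac, the partner of the staining, marks active enhancers and gene starts.

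The 1000-cell libraries held 3645778, 3159793 and 3328334 counts on the autosomes and X, and the 100-cell libraries 1580089, 1575090 and 1255432. Because the depths do not overlap, comparisons that depend on depth were repeated with every library thinned to 1255432 counts. Levels are given as times the genome mean: the counts per 1 kb bin of a feature, divided by the library's mean count per bin, so that genes of different length can be set side by side. A gene interior is the stretch of whole bins lying more than 2 kb from either end of a protein-coding gene, in genes of at least 5 kb. A library is the sum over its cells, so a lower level in every cell cannot be told apart from fewer cells with signal. In the markers of the line, the muscle factor Myf5 stood at 4.11 ± 1.03 times the genome mean at its start in 1000 cells and 3.11 ± 0.92 in 100 cells (SD, n = 3 each). Myod1, the other early muscle factor, stood near the mean, at 1.12 ± 0.66 and 1.21 ± 0.58. The other myoblast markers chosen were Cdh15 (2.74 ± 0.73 and 2.55 ± 1.18 at its start), Des (1.72 ± 0.18 and 1.02 ± 0.43) and Msc (0.358 ± 0.429 and 2.41 ± 3.70). None of these starts had enough counts to be tested, and that of Myf5 held 48 counts in 1000 cells and 16 in 100 cells. Of the pluripotency factors, Pou5f1 stood at 1.20 ± 1.07 in 1000 cells and 1.02 ± 0.90 in 100 cells, about the level of Myod1, Nanog at 0.517 ± 0.258 and 0.418 ± 0.369, and Sox2 at 0.168 ± 0.146 and 0.233 ± 0.403.

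The interior of Vim, which encodes the intermediate filament protein vimentin, had the highest level of all interiors that share no bin with another gene. The promoters of 3 genes are shown because their interiors had the highest Pol2S2P level averaged over both cell numbers (RefSeq, GRCm38.p6, all on the plus strand). Capitals mark 3 motifs searched on both strands, none overlapping another in these windows: the GC box, spelled GGGCGG, the CCAAT box, and the TATA box, spelled TATAAA.
Vim (chr2:13574061-13574360): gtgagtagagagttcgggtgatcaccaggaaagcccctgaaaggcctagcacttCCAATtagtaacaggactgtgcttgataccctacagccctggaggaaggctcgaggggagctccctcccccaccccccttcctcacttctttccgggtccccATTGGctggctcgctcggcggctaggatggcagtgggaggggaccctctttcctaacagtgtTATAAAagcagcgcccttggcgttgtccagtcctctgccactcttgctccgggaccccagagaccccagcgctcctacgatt
Eif4a2 (chr16:23107218-23107517): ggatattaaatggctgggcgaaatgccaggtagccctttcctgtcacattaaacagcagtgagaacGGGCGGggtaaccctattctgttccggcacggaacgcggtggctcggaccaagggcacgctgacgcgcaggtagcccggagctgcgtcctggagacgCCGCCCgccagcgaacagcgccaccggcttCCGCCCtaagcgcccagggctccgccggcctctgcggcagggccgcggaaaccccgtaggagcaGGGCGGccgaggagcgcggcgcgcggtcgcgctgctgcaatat
Hnrnpa1 (chr15:103240147-103240446): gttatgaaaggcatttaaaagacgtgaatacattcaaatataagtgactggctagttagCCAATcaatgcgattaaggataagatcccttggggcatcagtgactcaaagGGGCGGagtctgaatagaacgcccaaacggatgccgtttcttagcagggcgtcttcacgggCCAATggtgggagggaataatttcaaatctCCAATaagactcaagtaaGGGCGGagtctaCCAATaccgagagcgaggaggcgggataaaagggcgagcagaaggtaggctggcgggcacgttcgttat
The windows differ in these letters. The Vim window holds 1 TATA box and 2 CCAAT boxes, the Eif4a2 window 4 GC boxes, and the Hnrnpa1 window 2 GC boxes and 4 CCAAT boxes. Of 32851 promoter windows of that length in the table, 35.7% hold a GC box, 37.4% a CCAAT box and 13.6% a TATA box.

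In the 3 bins inside Vim, Pol2S2P stood at 26.5, 36.4 and 30.05 times the genome mean in 1000 cells, against 26.6, 37.9 and 23.1 in 100 cells. The groups overlap, and the log2 fold change of 1000 over 100 cells was 0.06 ± 0.18 (SE; edgeR quasi-likelihood test, adjusted p = 0.975). At its start Vim had 14.0 ± 2.40 in 1000 cells and 11.8 ± 1.06 in 100 cells, and at its far end 36.7 ± 3.16 and 35.5 ± 5.65 (SD, n = 3 each). The level was thus higher at the 3′ end than at the 5′ end at both cell numbers.

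Eif4a2, an RNA helicase of translation initiation, had 24.2, 32.5 and 28.1 in 1000 cells, against 34.98, 20.05 and 25.2 in 100 cells. Hnrnpa1, a pre-mRNA binding protein, had 19.9, 20.8 and 21.0 in 1000 cells, against 23.3, 22.6 and 27.3 in 100 cells. Npm1, the nucleolar protein nucleophosmin, had 21.1, 22.7 and 20.6 in 1000 cells, against 16.2, 17.9 and 20.4 in 100 cells. Of the 15 highest interiors, 3 did not overlap between groups, and none of these passed the test. The log2 fold change was -0.24 ± 0.24 SE for Hnrnpa1 and 0.25 ± 0.15 SE for Npm1 (edgeR adjusted p = 0.926 and 0.817). The third was Gzmm, the lymphocyte protease granzyme M, whose single bin had 12.3, 9.99 and 7.91 in 1000 cells, against 13.3, 21.7 and 23.1 in 100 cells (-0.91 ± 0.43 SE, edgeR adjusted p = 0.744). Among all 12075 interiors tested, 6.67% did not overlap and were higher in 1000 cells and 5.16% did not overlap and were lower.

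The other 11 of the 15 highest interiors averaged 10.1 to 19.2 in 1000 cells and 14.3 to 19.4 in 100 cells. They were Rabggtb (a subunit of the enzyme that prenylates Rab proteins), Rack1 (a scaffold on the small ribosomal subunit), Rps24 (a ribosomal protein), Ptgs2 (a cyclooxygenase), S100a11 (a calcium-binding protein) and Pabpc1 (the cytoplasmic poly(A)-binding protein). Kansl2 (a subunit of a histone acetyltransferase complex), Gzmm, Mettl23 (a methyltransferase), Ncl (nucleolin) and Eif4b (a translation initiation factor) completed them. None of the 15 passed the test.

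**Figure D1:**
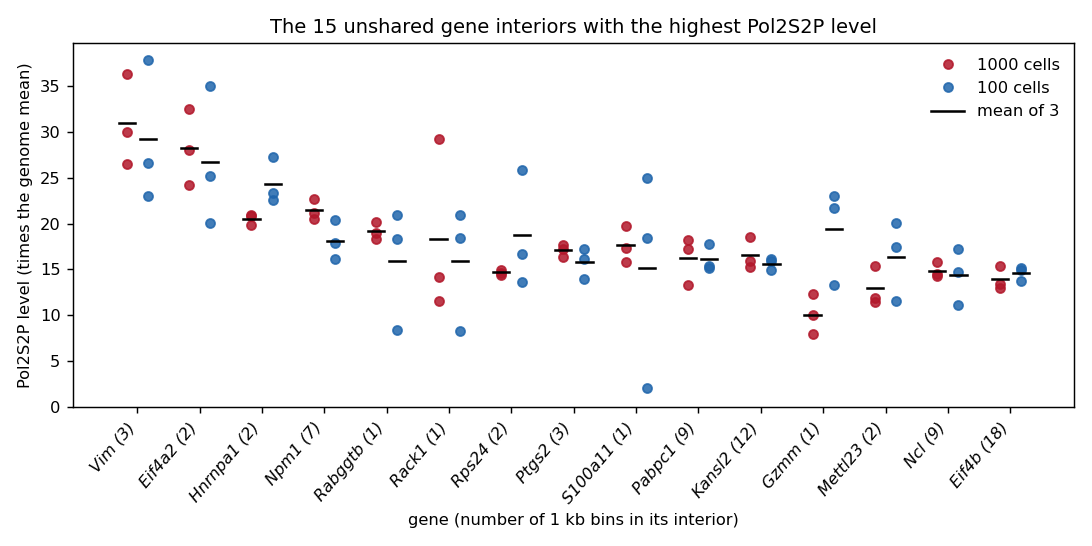
Pol2S2P level (times the genome mean, vertical axis) of the 15 gene interiors with the highest levels, with the number of 1 kb bins in brackets; points are libraries of 1000 cells (left, red) and 100 cells (right, blue), bars are means of 3. Of the 15, S100a11 had the largest SD among 100-cell libraries: this single-bin interior ran from 15.8 to 19.8 in 1000 cells and from 2.096 to 24.98 in 100 cells.

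Across the genome few gene interiors differed between the cell numbers. Of 12075 tested, 1 was higher in 1000 cells (0.00828%) and 1 lower (0.00828%) by edgeR at an adjusted p below 0.05, 0.0166% together, and 790 had an unadjusted p below 0.05. Without 1000-cell replicate 3 there were 0 calls, without 1000-cell replicate 1 there was 1, and without 100-cell replicate 1 there were 5. The median log2 fold change was 0.01. The 95% confidence interval of the fold change lay within 2-fold in either direction for 81.7% of the interiors and within 1.5-fold for 45.6%. For the 3465 interiors with a mean of at least 100 counts per library these shares were 100% and 97.1%, and for the 2308 with under 20 counts 31.3% and 0%. On counts simulated for this comparison, the test recovered 68% of interiors changed 2-fold and 32% of those changed 1.5-fold. The simulation gave both groups the same spread, whereas the real 100-cell libraries spread more than those of 1000 cells (below). These shares may thus differ in the real data.

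**Figure D2:**
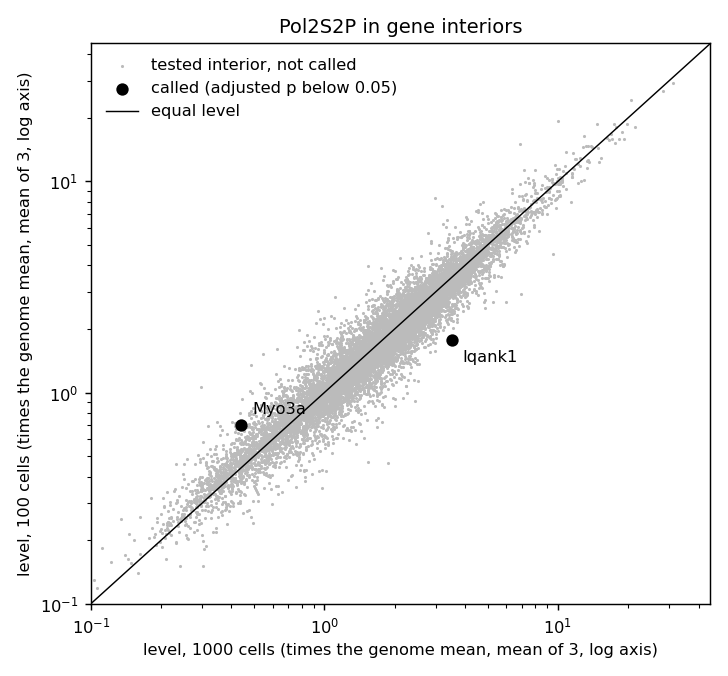
Mean Pol2S2P level of each tested gene interior in 1000 cells (horizontal axis) and 100 cells (vertical axis), both log axes in times the genome mean, n = 3 libraries each. Points lie along the line of equal level; the 2 called interiors, Iqank1 and Myo3a, are in black.

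Myo3a was the lower one. It encodes an unconventional myosin of the inner ear, spans chromosome 2 from 22227503 to 22618252 on the plus strand, and stood below the genome mean in all 6 libraries. Its 386 interior bins held 0.471, 0.442 and 0.410 times the genome mean in 1000 cells, against 0.755, 0.723 and 0.625 in 100 cells. The groups do not overlap, and the log2 fold change was -0.67 ± 0.12 SE (edgeR adjusted p = 0.0018). Much of its signal lay in 3 adjacent bins within the gene (22587911 to 22590910), which held 36.4% of the interior's counts in 1000 cells and 48.6% in 100 cells. Without the highest bin of each interior and its neighbours, a setting chosen after seeing the data, the log2 fold change of Myo3a was -0.37 and the call was lost (edgeR adjusted p = 0.613). Without 1000-cell replicate 3 it was also lost. H3K27ac of the same stainings stood at 0.549 ± 0.049 in 1000 cells and 0.774 ± 0.031 in 100 cells over the same bins, a log2 fold change of -0.49 (edgeR adjusted p = 0.165). The libraries stained for Pol2S2P alone had 0.259 and 0.193 there.

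Iqank1, an IQ-motif and ankyrin-repeat gene on chromosome 15 (76009435 to 76046981), was the higher one and is named although its interior shares bins with another gene. It had 3.43, 3.18 and 3.91 times the genome mean in 1000 cells, against 2.22, 1.77 and 1.33 in 100 cells, and 2.60 and 3.14 in the singly stained libraries. All 3 libraries of 1000 cells were above all 3 of 100 cells (log2 fold change 0.96 ± 0.19 SE, edgeR adjusted p = 0.0124). H3K27ac there had a log2 fold change of 0.28 (edgeR adjusted p = 0.818). The call was kept under 6 of 13 alternatives and lost under 7, among them DESeq2, equal depth, and leaving out 1000-cell replicate 1 or 3 or 100-cell replicate 2 or 3.

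The next smallest p-values did not pass, and 4 of those genes, chosen after their values were seen, are given here. Lgals3, which encodes galectin-3, stood at 9.51 ± 1.65 in 1000 cells and 4.51 ± 1.42 in 100 cells (SD, n = 3 each; log2 fold change 1.07 ± 0.25 SE, edgeR adjusted p = 0.201). Itgam, an integrin subunit of myeloid cells, stood at 1.26 ± 0.06 and 0.664 ± 0.103. Tnc, the matrix protein tenascin C, stood at 1.58 ± 0.20 in 1000 cells and 2.31 ± 0.25 in 100 cells, and Cd44, a hyaluronan receptor, at 7.05 ± 0.15 and 8.50 ± 1.43. Itgam, Tnc and Cd44 each had an edgeR adjusted p of 0.336.

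Gene starts and far ends gave no call. Starts were read in the bins within 1 kb of the annotated 5′ end where a strand was known, and otherwise of the end with more H3K4me3. By edgeR 0 of 4349 starts passed (0% called; 245 at an unadjusted p below 0.05, and 0 by DESeq2), and 0 of 3142 far ends (0%; 189 unadjusted, 0 by DESeq2). Far ends without 100-cell replicate 3 gave 2 calls. Levels of 6.32% of starts did not overlap and were higher in 1000 cells and 5.01% were lower, and of far ends 5.95% and 4.81%. The 95% interval lay within 2-fold for 33.6% of starts and 33.1% of far ends. Most had a mean under 20 counts per library (3760 starts and 2528 far ends), and for these the shares were 27.4% and 22.5%. Actb, which encodes beta-actin, had among the highest starts, at 29.2 ± 1.66 in 1000 cells and 33.8 ± 0.65 in 100 cells. Ptgs2 had 14.2 ± 1.20 at its start in 1000 cells and 11.9 ± 2.33 in 100 cells, and 20.9 ± 4.12 and 26.0 ± 6.01 at its far end.

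The 6 gene lists with the highest interior levels stood in the same order at both cell numbers, and no member of any of the 16 lists was called in interiors, starts or far ends. A list level pools the counts and bins of all members, so long genes weigh most in interiors. Interiors of ribosomal protein genes were highest, at 9.91 ± 0.71 times the genome mean in 1000 cells and 10.6 ± 2.12 in 100 cells over the 4 genes long enough to have one (3 tested, median log2 fold change -0.33). Housekeeping and translation genes followed at 7.89 ± 0.40 and 7.51 ± 0.28 (19 tested, median 0.07), and matrix and cytoskeleton genes at 5.02 ± 0.03 and 4.90 ± 0.16 (22 tested, median 0.07). In that last list Myh9, a non-muscle myosin heavy chain, had 11.5 ± 0.15 and 11.6 ± 1.05, and Lmna, which encodes nuclear lamins A and C, 9.33 ± 1.00 and 8.24 ± 1.02. The median over all tested interiors was 0.01.

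Immediate early genes stood at 4.88 ± 0.32 in 1000 cells and 4.14 ± 0.74 in 100 cells (Klf6, a zinc-finger factor, 12.2 ± 3.22 and 9.79 ± 2.73). Cell cycle genes stood at 3.64 ± 0.23 and 3.44 ± 0.17, among them Cdk1, the mitotic kinase, with 7.16 ± 0.55 and 5.74 ± 0.81 (log2 fold change 0.31 ± 0.18 SE, edgeR adjusted p = 0.824). The polymerase's own machinery stood at 3.22 ± 0.195 and 3.25 ± 0.013 (26 tested, median log2 fold change 0.01). Within it, Ccnt1, the cyclin partner of CDK9, had 6.28 ± 0.53 in 1000 cells and 7.53 ± 1.15 in 100 cells, and Polr2a, the largest subunit of the polymerase, 5.23 ± 0.32 and 5.75 ± 0.52.

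Muscle genes were lower. Myogenic regulators stood at 1.31 ± 0.05 in 1000 cells and 1.24 ± 0.04 in 100 cells (10 tested, median 0.21), and contractile genes at 1.04 ± 0.06 and 1.02 ± 0.06 (12 tested, median 0.02). Within the contractile list Tpm1, a tropomyosin that non-muscle cells also use, had 6.11 ± 0.40 and 6.47 ± 0.48. In the myogenic list Des, which encodes the muscle filament protein desmin, had 3.53 ± 1.24 and 1.39 ± 0.28 and too few counts to be tested. The list of very long genes stood at 0.597 ± 0.002 and 0.613 ± 0.015.

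Pooled over all coding interiors the level was 1.39 in 1000 cells and 1.38 in 100 cells. Some markers of other cell types were low: neuronal and glial genes at 0.699 ± 0.023 in 1000 cells and 0.725 ± 0.030 in 100 cells, liver genes at 0.579 ± 0.043 and 0.676 ± 0.080, and olfactory and vomeronasal receptors at 0.389 ± 0.011 and 0.408 ± 0.019. Blood markers stood at 1.08 ± 0.02 and 1.07 ± 0.19 and adipocyte and bone genes at 2.38 ± 0.07 and 2.39 ± 0.17, with Runx2, a bone regulator, at 3.32 ± 0.07 and 3.34 ± 0.34. Transcription factors of other lineages stood at 2.13 ± 0.05 and 1.95 ± 0.02, with Ebf1, a B-cell and adipocyte factor, at 2.71 ± 0.10 and 2.47 ± 0.10. These last lists hold long genes, with 385 interior bins in Ebf1 and 313 in Runx2, which weigh heavily in the pooled levels. In interiors both lists stood above the myogenic regulators (1.31 and 1.24). At their starts the transcription factors of other lineages stood at 0.880 ± 0.072 and 1.08 ± 0.25, and adipocyte and bone genes at 1.38 ± 0.10 and 1.48 ± 0.36. Starts of myogenic regulators stood at 2.06 ± 0.14 and 2.15 ± 0.46.

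Replication-dependent histone genes, whose transcription is tied to S phase, were mostly too short for interiors and were read at their starts. Only 3 of the 67 had an interior, pooled at 1.41 ± 0.15 in 1000 cells and 1.03 ± 0.16 in 100 cells, and the 1 tested, H2bc6, did not pass (log2 fold change 0.38 ± 0.25 SE, edgeR adjusted p = 0.836). Over 66 starts, which cover 136 distinct bins and of which 53 lie on chromosome 13, Pol2S2P stood at 4.30, 4.89 and 4.80 times the genome mean in 1000 cells, against 3.49, 3.65 and 3.61 in 100 cells. The groups do not overlap, and the mean was 30.2% higher in 1000 cells. H3K27ac over the same bins stood at 6.03, 6.49 and 5.999 in 1000 cells, against 4.68, 5.47 and 4.79 in 100 cells, 23.9% higher, also without overlap. Of 44 starts tested, 33 had a fold change above 0 and 11 below it, with a median of 0.27, against 50.1% above 0 and a median of 0.00 over all starts tested. No single histone start passed (smallest edgeR adjusted p = 0.602), and these genes are near-identical copies whose reads the counting could split. The starts of 20 cell cycle genes stood at 4.42 ± 0.36 in 1000 cells and 3.81 ± 0.34 in 100 cells without overlap, and their H3K27ac at 5.33 ± 0.40 and 5.46 ± 0.18 with overlap. Starts of neuronal and glial markers (1.06 ± 0.10 and 0.830 ± 0.042) and of liver markers (1.14 ± 0.09 and 0.896 ± 0.151) were also apart and higher in 1000 cells, by 27.96% and 27.2%, and those of olfactory and vomeronasal receptors apart and lower (0.423 ± 0.004 and 0.447 ± 0.019). In all, 5 of the 16 lists did not overlap at starts, 3 in interiors and 2 at far ends. For H3K27ac these counts were 1, 2 and 2. Among single starts tested, 6.32% did not overlap and were higher in 1000 cells and 5.01% did not overlap and were lower. For single interiors these shares were 6.67% and 5.16%, and for far ends 5.95% and 4.81%. The list levels carry no test.

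The mean profile was taken along 893 H3K4me3-marked genes of at least 20 kb with a known strand. None had another coding gene within 10 kb before the start or 20 kb past the end. Both groups showed the same shape along them (the plot of the mean profile). In the first twentieth of the body the level was 2.57 ± 0.05 in 1000 cells and 2.56 ± 0.06 in 100 cells, in the central part 2.14 ± 0.04 and 2.11 ± 0.01, and in the last twentieth 2.02 ± 0.05 and 1.99 ± 0.03. It rose again past the end, to 2.66 ± 0.13 and 2.66 ± 0.08 in the first 2 kb. From 2 to 5 kb past the end the 1000-cell libraries had 2.44, 2.48 and 2.45, against 2.59, 2.496 and 2.57 in 100 cells. From 5 to 10 kb the level was 1.95 ± 0.04 in 1000 cells and 2.05 ± 0.05 in 100 cells, and from 10 to 20 kb 1.46 ± 0.01 and 1.51 ± 0.02. Each of these 3 stretches lay lower in all 1000-cell libraries (exact permutation p = 0.1, the smallest that 3 against 3 allows, 0.333 after Benjamini-Hochberg adjustment over 10 parts). H3K27ac had 1.61 ± 0.03 in 1000 cells and 1.56 ± 0.03 in 100 cells in the last twentieth of the body, and 1.72 ± 0.08 and 1.70 ± 0.03 in the first 2 kb past the end, a smaller step than that of Pol2S2P. With Pol2S2P stained alone the peaks were sharper, 4.07 and 3.998 in the first twentieth and 3.71 and 3.74 in the first 2 kb past the end.

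**Figure D3:**
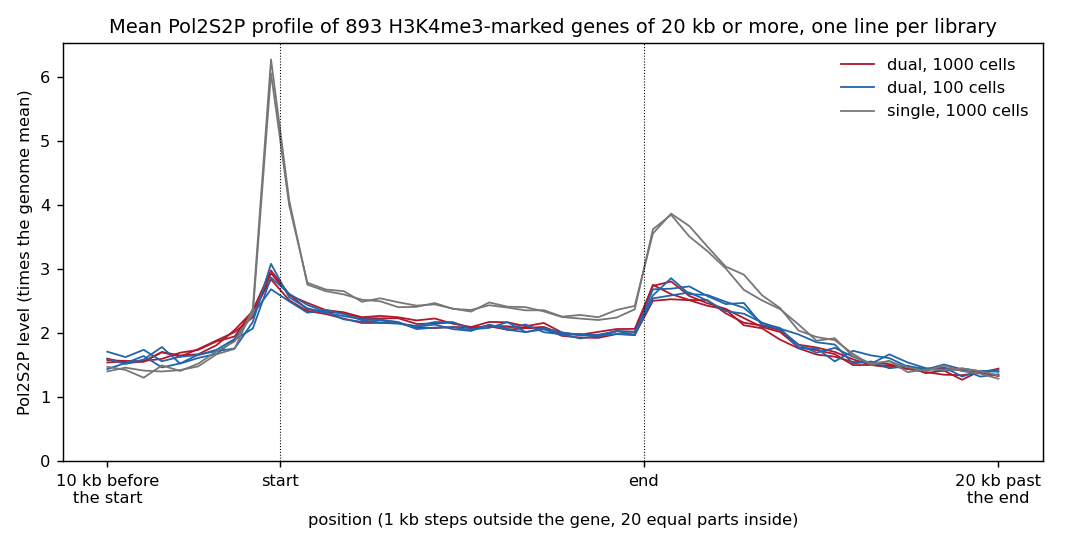
Mean Pol2S2P level (times the genome mean) along 893 H3K4me3-marked genes of 20 kb or more, from 10 kb before the start to 20 kb past the end, one line per library (dual 1000 cells red, dual 100 cells blue, single 1000 cells grey). The dual lines overlap inside the gene and differ slightly from 2 kb past the end, where levels were 2.45 in 1000 cells and 2.55 in 100 cells.

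Shares of counts over whole classes of bins were close. Interiors held 49.5% ± 0.28 of the counts in 1000 cells and 49.2% ± 0.22 in 100 cells, starts 4.70% ± 0.08 and 4.67% ± 0.05, and far ends 4.40% ± 0.08 and 4.37% ± 0.07 (SD, n = 3 each; exact permutation p = 0.3, 0.5 and 0.5). The top 1% of 10 kb windows held 7.64% ± 0.23 and 7.79% ± 0.13 at equal depth (exact permutation p = 0.5). Where the gene start carried 179 or more H3K4me3 counts (4120 genes), interiors had 4.89 ± 0.18 times the level of the 4257 genes with at most 6 in 1000 cells and 4.70 ± 0.10 times in 100 cells (exact permutation p = 0.3). The singly stained libraries reached 7.48 and 7.46. By length, H3K4me3-marked genes of 5 to 20 kb stood at 2.68 to 2.80 in 1000 cells and 2.68 to 2.77 in 100 cells, and those of at least 500 kb at 1.23 to 1.26 and 1.18 to 1.22.

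Gene-poor DNA differed slightly. Bins more than 500 kb from every coding gene stood at 0.307, 0.298 and 0.299 times the genome mean in 1000 cells, against 0.322, 0.329 and 0.316 in 100 cells, and at 0.174 and 0.174 with single staining. Chromosome X stood at 0.405, 0.404 and 0.402 in 1000 cells, against 0.430, 0.428 and 0.436 in 100 cells, a change of -6.42%, where that of H3K27ac was -2.39%. Chromosomes 15 and 19 were 2.24% higher each, and levels of the other 17 chromosomes overlapped between groups (10% of the chromosomes did not overlap and were higher, 5% did not overlap and were lower). In interiors of marked genes of 20 kb or more, the distal part (the interior split at its middle) had 0.928, 0.925 and 0.923 times the level of the part next to the start in 1000 cells, against 0.937, 0.935 and 0.940 in 100 cells. None of these sets of libraries overlap, and each gave an exact permutation p of 0.1, the smallest possible here. After Benjamini-Hochberg adjustment the p was 0.35 for the deserts and the distal part (7 shares and ratios compared) and 0.667 for the 3 chromosomes (20 compared). H3K27ac in the deserts stood at 0.358 to 0.371 in 1000 cells and 0.359 to 0.390 in 100 cells, with overlap. The 100 kb windows show the same lean: the 7892 windows at 0.25 to 0.5 times the genome mean held 10.3% ± 0.25 of the counts in 1000 cells and 11.2% ± 0.20 in 100 cells, with a median log2 fold change of -0.11, against 0.03 for the 5768 windows at 1 to 2 times the mean.

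**Figure D4:**
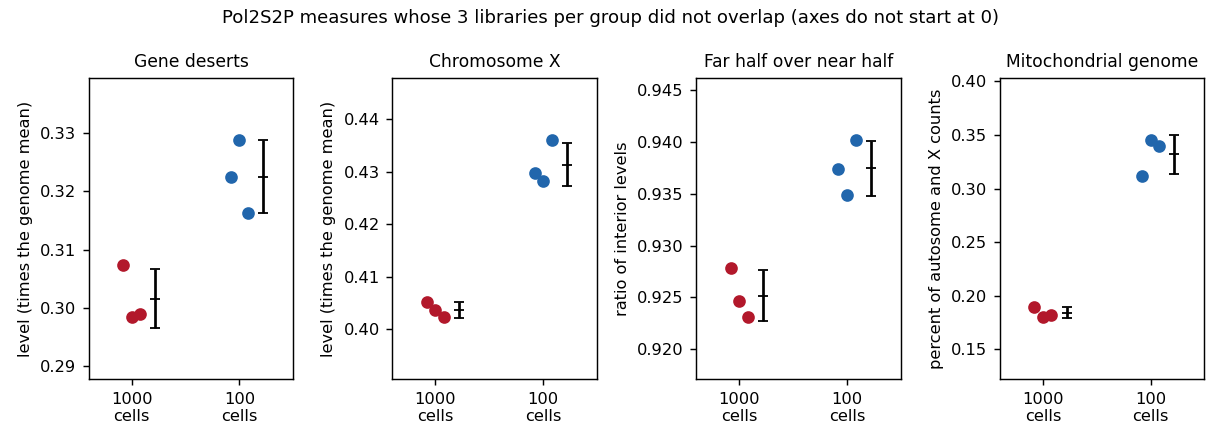
Gene desert level, chromosome X level, ratio of the distal to the proximal part of interiors and mitochondrial share (percent of autosome and X counts) in Pol2S2P libraries of 1000 cells (left, red) and 100 cells (right, blue), with mean and SD beside the 3 points; axes do not start at 0. In each panel all 1000-cell libraries lie below all 100-cell libraries, at 0.404 and 0.431 for chromosome X.

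Among wide windows, 3 of 80661 windows of 10 kb were called (0.00372%), all lower in 1000 cells, and 11 of 25071 windows of 100 kb (0.0439%), 2 higher (0.00798%) and 9 lower (0.0359%; edgeR). The groups did not overlap in any called window. Among all 10 kb windows tested, 7.06% did not overlap and were higher in 1000 cells and 4.79% did not overlap and were lower, and among 100 kb windows 5.85% and 6.95%. Leaving out 1000-cell replicate 1, 2 or 3 left 3, 1 or 4 calls of 100 kb windows, and leaving out 100-cell replicate 1 or 2 left 6 each. The firmest lay on chromosome 1 (24609901 to 24619900), where RefSeq places the pseudogenes Gm10222 and Gm10925. It held 22.02, 20.7 and 18.7 times the genome mean in 1000 cells, against 38.3, 44.8 and 42.3 in 100 cells (log2 fold change -1.03 ± 0.11 SE, edgeR adjusted p = 2.29e-09), and 4.81 on average with single staining. H3K27ac moved by -1.16 there (edgeR adjusted p = 2.49e-16). This call and that of the 100 kb window around it, which takes in part of the collagen gene Col19a1, were kept under all 11 alternatives run for windows. Mouse chromosome 1 is known to carry a nuclear copy of part of the mitochondrial genome near this place. Counts on the mitochondrial genome itself were 0.184% ± 0.005 of the autosome and X counts in 1000 cells and 0.332% ± 0.018 in 100 cells, and their part in the window's change was not tested.

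In the other 10 kb windows most counts lay in a few bins. The one inside Myo3a (chromosome 2, 22587911 to 22597910) had 8.23, 5.41 and 5.53 times the genome mean in 1000 cells, against 13.5, 15.7 and 10.5 in 100 cells (log2 fold change -1.05 ± 0.18 SE, edgeR adjusted p = 0.00516; H3K27ac -0.96), and 3 of its 10 bins held 96.0% of the counts in 1000 cells and 98.7% in 100 cells. Its call was lost without 1000-cell replicate 2 or 3 or 100-cell replicate 1 or 2. With single staining this window averaged 1.00 (22 counts). The one on chromosome 12 (3101991 to 3111990) lies 102 kb from the first bin with counts on that chromosome and had 10.1, 8.99 and 9.01 in 1000 cells, against 17.5, 16.04 and 21.4 in 100 cells (-0.95 ± 0.15 SE, edgeR adjusted p = 0.000687; H3K27ac -0.78). Without 100-cell replicate 3 it missed the threshold (adjusted p = 0.0595 by edgeR). Both of these windows also passed in H3K27ac (edgeR adjusted p = 0.00418 for Myo3a and 0.034 for chromosome 12).

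The called 100 kb windows fell into those shared by H3K27ac and those where H3K27ac did not pass its own test. Those with part of Col19a1, with Myo3a and at the start of chromosome 12 each contain a called 10 kb window, so they are not separate calls. With Col19a1 that 10 kb window held 790 of 1185 counts in 1000 cells and 700 of 843 in 100 cells. With Myo3a it held 249 of 374 and 225 of 290, and on chromosome 12 362 of 636 and 303 of 417. In the windows with part of Col19a1, with Myo3a and at the start of chromosome 9 (3001991 to 3101990), Pol2S2P log2 fold changes were -0.71, -0.83 and -0.52. Those of H3K27ac were -0.92, -0.79 and -0.52, each called in both. The last 2 of these Pol2S2P calls were lost by DESeq2 and without 1000-cell replicate 2, and that on chromosome 9 also without 1000-cell replicate 3 or 100-cell replicate 1 and at equal depth. The window at the start of chromosome 12 lay at -0.59 for Pol2S2P and -0.42 for H3K27ac (edgeR adjusted p = 0.382 for H3K27ac, although the 10 kb window inside it passed). The Pol2S2P call of the 100 kb window was lost under 4 of 11 alternatives. In the other 7 windows H3K27ac lay between -0.21 and 0.04. The 5 of these that were lower in 1000 cells were a chromosome 6 window without a coding gene (105284576 to 105385570; -1.33 ± 0.29 SE), a window in Hs6st2, a heparan sulfate sulfotransferase gene on X (-1.02 ± 0.22 SE), one on chromosome 2 (116293531 to 116394525; -0.999 ± 0.22 SE), one over Igsf5, Itgb2l and Pcp4 on chromosome 16 (-0.64 ± 0.14 SE) and one over Mbnl2 and Rap2a on chromosome 14 (-0.44 ± 0.09 SE). Mbnl2 encodes a splicing regulator and Rap2a a small GTPase. The chromosome 6 window held only 74 counts over the 1000-cell libraries and 81 over the 100-cell libraries. That in Hs6st2 held 149 and 131, and that on chromosome 2 149 and 129. In these windows the 3 highest bins held 2, 7 and 4 counts in 1000 cells, against 17, 22 and 23 in 100 cells.

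The higher windows were one on chromosome 15 (75961691 to 76061690; 0.53 ± 0.11 SE) with Zfp707, Ccdc166, Mapk15, Fam83h, Iqank1 and the polarity gene Scrib, and one on chromosome 10 without a coding gene (19114926 to 19214925; 0.51 ± 0.11 SE). The chromosome 15 window contains the called interior of Iqank1, so it is not a separate call. That interior held 446 of the window's 1100 counts in 1000 cells and 100 of 332 in 100 cells. The interiors of Fam83h and Scrib did not pass (edgeR adjusted p = 0.961 and 0.879). On chromosome 15 the window had 2.86, 2.77 and 2.93 times the genome mean in 1000 cells, against 1.88, 1.99 and 2.096 in 100 cells, and 2.91 on average with single staining. Of these 7, each lost its call under 7 to 9 of 11 alternatives, including DESeq2, equal depth and leaving out any one 1000-cell library. Whether Pol2S2P changed otherwise than H3K27ac was tested as an interaction in 12 libraries: 0 of 12433 interiors passed (0%, with 624 at an unadjusted p below 0.05, no other tool was run). No called window passed that test (edgeR adjusted p of at least 0.872 for the 11 windows of 100 kb). Both targets of a staining come from the same cells, and the fit had no term for the staining. Its p-values thus treat the 12 libraries as independent.

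**Figure D5:**
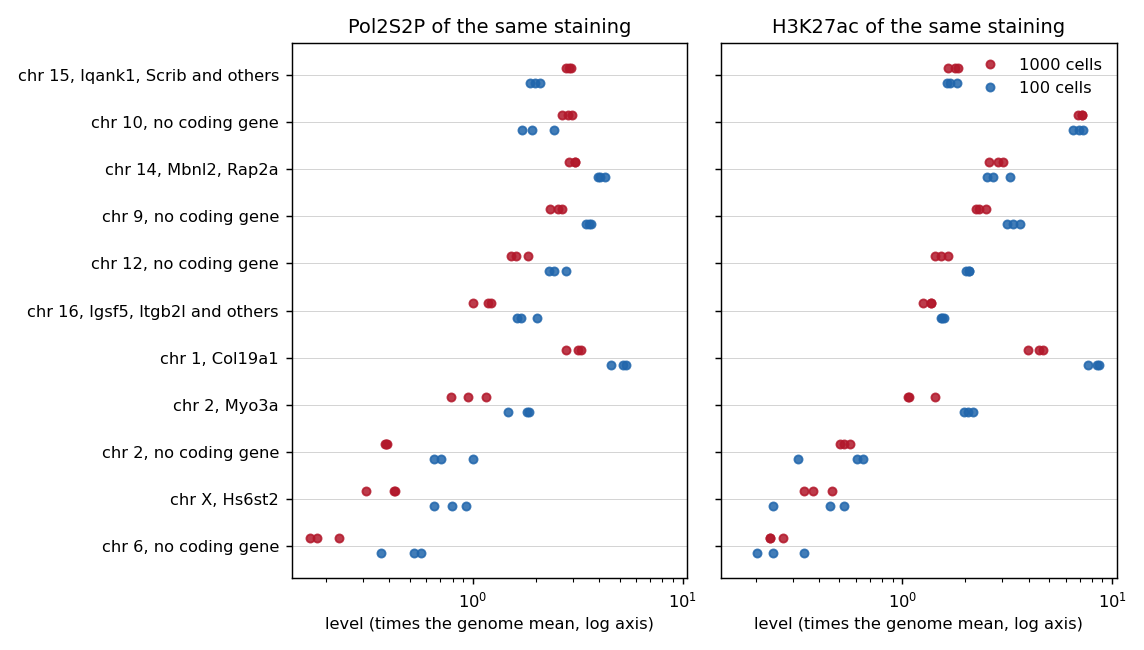
Levels (times the genome mean, log axis) of the 11 called 100 kb windows, from the most positive fold change at the top to the most negative, in Pol2S2P (left) and H3K27ac (right); points are libraries of 1000 cells (upper row, red) and 100 cells (lower row, blue). Pol2S2P groups are apart in all 11, and H3K27ac groups in the windows of chromosomes 9, 12, 16, 1 (Col19a1) and 2 (Myo3a).

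Replicates of 100 cells also spread more than those of 1000 cells. At equal depth the biological coefficient of variation of interiors, edgeR's spread beyond counting error, was 4.999% among 1000-cell libraries and 11.1% among 100-cell libraries. For 10 kb windows it was 11.8% and 24.97%, and for 100 kb windows 5.15% and 10.9%. Across the 12075 interiors, thinned log levels of library pairs correlated at 0.878 to 0.885 within 1000 cells, 0.833 to 0.846 within 100 cells and 0.852 to 0.868 between them (Pearson, across interiors, which are not independent replicates). Of 16449 interiors, 4014 exceeded 2 times the genome mean in every thinned library of 1000 cells and 3620 in every one of 100 cells. The 2979 shared interiors were 74.2% of the first set and 82.3% of the second. At the same depth 69.9% to 70.4% of 1 kb bins were empty in 1000 cells and 72.3% to 72.9% in 100 cells.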

How the data were processed

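The table deposited by the authors holds unscaled counts per 1 kb bin of GRCm38. The submitters' processing notes name bcl2fastq, HISAT2 2.1.0 and deepTools 3.3.1, and the sources used here do not say how duplicates or multiply mapped reads were treated. Columns were matched to samples by title; 4 columns matched none and were not used, and 6 samples had no column analysed here. Library size was the count on autosomes and X, leaving out 9 bins whose density passed 50 times the genome mean in all groups. Genes came from a RefSeq table (GRCm38.p6, 21631 protein-coding genes), with strand for 79.9% of them; otherwise the end with more H3K4me3 was taken as the start, a choice that matched the strand in 97.5% of 7495 stranded genes with at least 50 H3K4me3 counts. The profile uses stranded genes alone.

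Counts were tested with edgeR 4.0.16 (quasi-likelihood, filterByExpr, Benjamini-Hochberg, 0.05) in R 4.3.3 on the 6 libraries, with DESeq2 1.42.0, TMM, no filter, thinning, a replicate block, other feature widths and leaving out each library as alternatives. The fit was tested on simulated data with the same spread in both groups. Shares were compared by two-sided exact permutation tests. Fold changes are 1000 over 100 cells. Intervals cover counting error and the spread of these libraries. The edgeR and DESeq2 fits gave both groups the same spread, although 100-cell libraries spread more than those of 1000 cells. The labels mention no molecular identifiers, so counts may include copies of 1 molecule. Named interiors passed the test (groups apart, no shared bins, at least 20 counts in each library of the higher group) or were among the 15 highest; members named from a list are among its 3 highest. Other named genes, Iqank1 included, were picked after their values were seen. The comparison and gene lists were chosen with earlier results of these data known. Python 3.11.15 with numpy 2.4.6, pandas 2.3.3, scipy 1.17.1 and matplotlib 3.10.9 handled tables and plots.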

Additional observations from a re-analysis of the deposited data

Results flagged for a closer look

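Mitochondrial bins were outside the comparisons and showed signal in every library. In Pol2S2P libraries they held 0.184% of the autosome and X counts in 1000 cells (0.180% to 0.190%) and 0.332% in 100 cells (0.311% to 0.345%), 1.80 times as much in 100 cells. H3K27ac of the same stainings had 0.238% and 0.460%. With 10000 and 1000 cells, CTCF had 0.0417% and 0.0734%, and H3K4me3 0.0648% and 0.138%. The bins of very high density, removed from all libraries, held 0.0610% of Pol2S2P counts in 1000 cells and 0.109% in 100 cells. All these ranges stood apart between cell numbers (exact permutation p = 0.1, the smallest 3 against 3 allows).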

How the results depend on the processing

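The 2 interior calls became 1 by DESeq2, 1 at equal depth, 1 with interiors over 5 kb inside genes of 20 kb or more and 1 without the highest bin of each interior and its neighbours (added after seeing the data), and 0 to 5 with each library left out. Far ends gave 1 call with no filter and 0 to 2 with a library left out. The 10 kb windows gave 6 calls with no filter and 2 to 4 with a library left out, and the 100 kb windows 1 by DESeq2, 3 at equal depth and 1 to 8 with a library left out, against 11. Starts and the interaction with H3K27ac stayed at 0. The replicate block gave 2 interiors, 0 starts, 0 far ends, 3 windows of 10 kb and 10 of 100 kb. Same-numbered Pol2S2P libraries of 1000 and 100 cells did not deviate together (correlations of deviations across interiors -0.0061, -0.0163 and -0.0032). That check showed no pairing between the cell numbers, but it cannot exclude a shared culture or batch. Within a cell number, the H3K27ac and Pol2S2P libraries of a staining carry the same number. Leaving out 1 library moved the difference in the share at starts between -0.00378 and 0.0701 points and at far ends between -0.00678 and 0.0743, turning its sign without 1000-cell replicate 2 (-0.00359 and -0.00296) and 100-cell replicates 1 and 2. The differences in desert level (-0.0241 to -0.0178), in the log2 distal-to-proximal ratio (-0.0211 to -0.0170), in the log2 marked-to-unmarked ratio (0.0340 to 0.0855), in the interior share (0.200 to 0.484) and in the top 1% of 10 kb windows (-0.265 to -0.0333) kept their sign. Without thinning, the mean correlation within 1000 cells, within 100 cells and between them was 0.945, 0.852 and 0.897 for interiors, 0.807, 0.582 and 0.679 for 10 kb windows and 0.985, 0.954 and 0.968 for 100 kb windows, against 0.881, 0.840 and 0.861, then 0.654, 0.560 and 0.600, then 0.968, 0.951 and 0.958 at equal depth; the depths differ between groups. Changes at starts and far ends could be missed: a simulated 2-fold change was recovered in 26% of starts and 28% of far ends. That simulation gave both groups the same spread and did not vary the depth.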
